A study of Mus musculus with 2 samples.

Results

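The Notch set held 10 genes, made up of the receptors Notch1, Notch2, Notch3 and Notch4, the ligands Jag1, Jag2, Dll1 and Dll4, and the targets Hes1 and Hey1. Every probe set that the platform annotation names by 1 of these symbols was taken, which gave 19 probe sets of the 45037 on each array and 10 of 18193 named genes. The series compared CMT-93, a carcinoma line from mouse rectum, with CMT-93-PM1, a culture grown from tumours that CMT-93 cells had formed in mouse lungs. The lung tumours were taken 8 weeks after tail vein injection into female C57BL/6 mice that were 6 weeks old. No genotype change or drug is given for either culture, both were grown in the same serum-supplemented medium, and 6 µg of total RNA from each was labelled with biotin for 1 array. The labels do not say whether CMT-93-PM1 came from 1 tumour or mouse or from several, and it was a primary culture of tumour tissue that could hold host cells.

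Notch receptors sit in the plasma membrane and are activated by Jagged or Delta-like ligands on a neighbouring cell. ADAM proteases and then gamma-secretase cut the bound receptor, and the freed intracellular domain joins the DNA-binding protein RBPJ and a Mastermind-like co-activator to switch on genes such as those of the Hes and Hey repressors. In the intestinal crypt this pathway maintains progenitors and favours the absorptive over the secretory fate, in part because Hes1 represses the secretory regulator Atoh1.

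Values are log2 signals, and ratios are lung-recovered minus parental. Signals at or below the 40th percentile of an array, 4.69 log2 for the parental and 4.59 for the lung-recovered array, were treated as at the floor. A gene with several probe sets was represented by the one with the highest mean signal. With 1 array per culture no difference has a replicate check and no test between the cultures was possible. A difference between the lines and one that arose in growing a culture or in preparing and hybridizing its RNA cannot be told apart. The only spread within these data is that between probe sets of 1 gene, whose SD of the log2 ratio had a median of 0.18 and a 90th percentile of 0.52 over 6172 genes.

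Jag1 was higher and Notch4 lower in the lung-recovered line, and the other 8 members were within 2-fold. Thus 1 of 10 members was at least 2-fold higher, beside 4.42% of the 13332 measured genes, and 1 of 10 at least 2-fold lower, beside 2.55%. In either direction this makes 2 of 10 members beside 6.97%. Ratios were above 0 for 5 members and below 0 for 5, with a median of 0.07, while the median over all measured genes was 0 and 49.2% of them had ratios above 0. The members therefore did not lie to one side as a set. Of the 19 probe sets, 15 exceeded the floor of both arrays, 1 only that of the lung-recovered array, and 3 neither. Among the 16 measured probe sets, 2 were at least 2-fold higher (4.04% of all measured named probe sets) and 1 at least 2-fold lower (2.78%), or 3 in all beside 6.82%. Both higher probe sets belong to Jag1 and the lower one to Notch4, so this count adds no gene to the 2 named above.

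**Figure D1:**
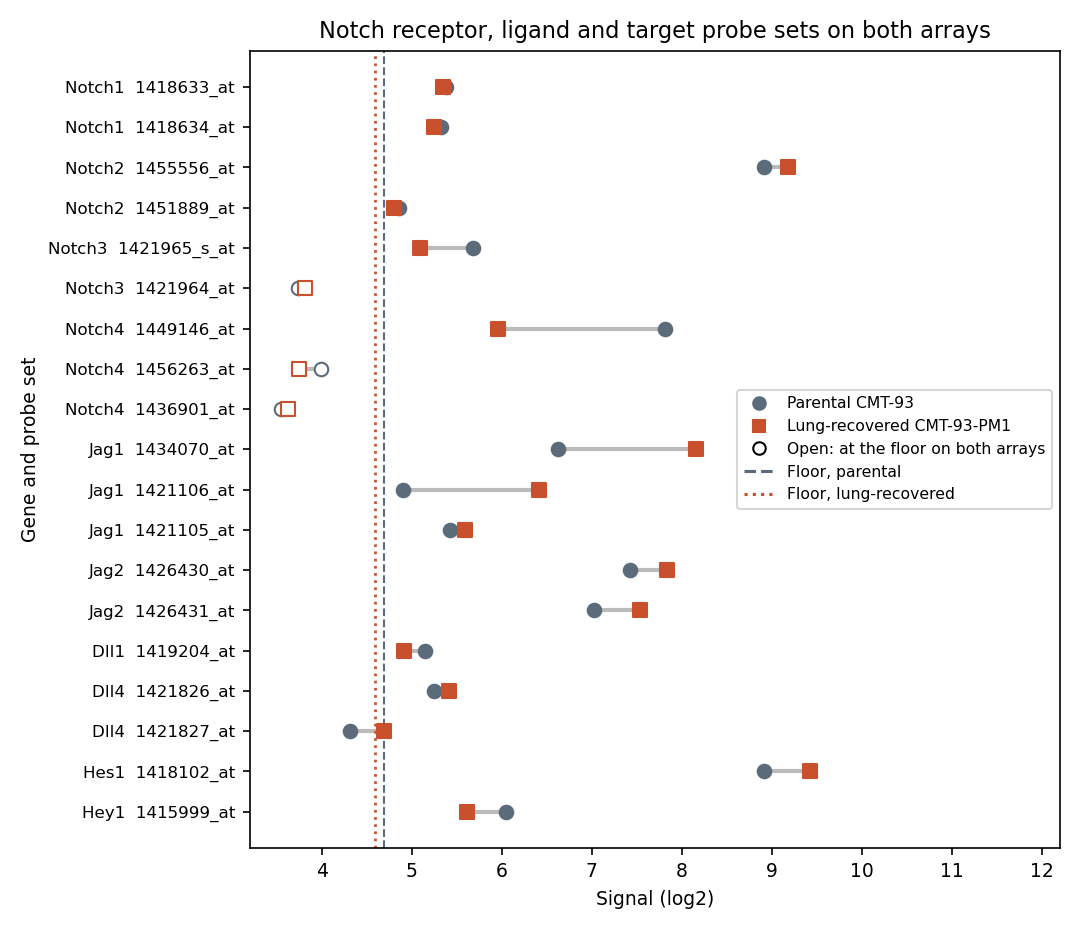
Log2 signal (horizontal axis) of each of the 19 probe sets of the 10 genes on the parental array (circles) and the lung-recovered array (squares), 1 array each, with the floors as vertical lines and open symbols for probe sets at the floor on both arrays. The widest gaps are those of Notch4 1449146_at, from 7.82 to 5.96, and of 2 of the 3 Jag1 probe sets, from 6.63 to 8.16 and from 4.90 to 6.41.

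The 250 bases before the start of Jag1 and of Notch4 are shown because these were the members past 2-fold. They are RefSeq sequences of the assembly GRCm38.p6, at chr2:137116521-137116770 on the minus strand for Jag1 and at chr17:34564045-34564294 on the plus strand for Notch4, written 5′ to 3′ on the strand of the gene with CpG dinucleotides in capitals.
Jag1: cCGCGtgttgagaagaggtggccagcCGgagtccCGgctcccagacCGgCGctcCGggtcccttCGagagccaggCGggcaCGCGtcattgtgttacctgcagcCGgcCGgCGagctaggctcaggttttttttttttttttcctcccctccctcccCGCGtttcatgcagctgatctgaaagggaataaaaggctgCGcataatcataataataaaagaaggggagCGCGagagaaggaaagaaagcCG
Notch4: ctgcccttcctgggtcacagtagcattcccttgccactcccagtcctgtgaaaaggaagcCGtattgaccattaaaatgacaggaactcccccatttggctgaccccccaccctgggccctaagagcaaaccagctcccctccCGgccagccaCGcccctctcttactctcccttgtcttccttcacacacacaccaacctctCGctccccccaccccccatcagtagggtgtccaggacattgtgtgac
The Jag1 window held 20 CpG dinucleotides and the Notch4 window 4, and the median over the 32851 promoter windows of this length was 6, with quartiles of 2 and 16. The windows of members within 2-fold held from 13, in a Dll1 window, to 54, in that of Jag2. The Jag1 count thus lay inside their range, and a link between CpG count and ratio was not tested.

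Among the receptors, Notch4 stood apart by a single probe set. Notch4, a receptor best known from blood vessel endothelium, had a signal of 7.82 log2 in the parental line and 5.96 in the lung-recovered line by 1449146_at, which is a ratio of -1.86 or 3.63-fold lower. Of all measured genes, 0.735% had a ratio at or below this. Among the 1333 measured genes of like mean signal the share was 1.43%, and their ratios had an SD of 0.79. The other Notch4 probe sets were at the floor on both arrays, at 3.99 and 3.75 for 1456263_at and at 3.55 and 3.63 for 1436901_at, so the Notch4 difference has no second measurement within the array. In RNA from a whole culture, fewer cells with the transcript and less transcript per cell cannot be told apart.

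Notch1, the receptor for which most crypt functions of the pathway are described together with Notch2, was dim and level. Its probe sets read 5.38 and 5.35 (1418633_at) and 5.33 and 5.25 (1418634_at), less than 1 log2 unit above the floor on either array. The Notch1 ratio of -0.03 was 0.07 after the arrays were shifted to equal medians, so it has no settled sign. Notch2 read 8.91 and 9.18 by 1455556_at, a ratio of 0.27, and 4.86 and 4.80 by 1451889_at, which lay just above the floor.

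Notch3, a receptor of vascular smooth muscle and pericytes that is also found in carcinomas, read 5.68 and 5.09 by 1421965_s_at. This is a ratio of -0.59, or 1.51-fold lower, and 6.95% of measured genes had a ratio at or below it. Its other probe set, 1421964_at, was at the floor on both arrays at 3.74 and 3.82. Probe sets with the suffix _s can share probes with other transcripts, so the Notch3 value is uncertain. The receptor ratios thus ran from -1.86 to 0.27, with 1 of 4 past 2-fold. Of the 4, 3 were below 0, among them Notch1, whose ratio of -0.03 has no settled sign.

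Among the ligands, both Jagged genes were higher in the lung-recovered line, Jag1 past 2-fold and Jag2 within it, while the Delta-like genes were dim. By 1434070_at, Jag1 had a signal of 6.63 in the parental line and 8.16 in the lung-recovered line, a ratio of 1.53 or 2.89-fold higher. A second Jag1 probe set, 1421106_at, read 4.90 and 6.41, a ratio of 1.51, starting 0.21 above the parental floor. The remaining one, 1421105_at, read 5.43 and 5.59, a ratio of 0.16. These probe sets do not agree on the size of the difference. The SD of the Jag1 ratio over its 3 probe sets was 0.79, and 3.32% of genes with several measured probe sets had an SD as large. No probe sequences were used here, so the probe sets were not assigned to parts or isoforms of the transcript. By its brightest probe set, 1.62% of measured genes had a ratio at least as high as that of Jag1, and 2.40% of the 1333 genes of like signal.

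Jag2 read 7.43 and 7.84 by 1426430_at and 7.03 and 7.54 by 1426431_at. Its ratios of 0.41 and 0.51 were alike, and 18.4% of measured genes had a ratio at least as high as the first. Dll1, a ligand expressed by secretory precursors in the crypt, read 5.15 and 4.92, a ratio of -0.23. Dll4, which acts with Dll1 in the crypt and is a main ligand of growing vessels, read 5.25 and 5.42 by 1421826_at, a ratio of 0.17. Its other probe set, 1421827_at, read 4.31 and 4.69, from the floor on the parental array to 0.10 above the floor of the lung-recovered array. Both Delta-like genes were thus less than 1 log2 unit above the floor on either array, so a lower level could be followed only down to the floor.

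The targets went in opposite directions, each by less than 2-fold. Hes1, a repressor and the most general readout of the pathway in the intestine, had signals of 8.92 in the parental and 9.42 in the lung-recovered line by its only probe set, 1418102_at. The Hes1 ratio of 0.50, or 1.41-fold higher, was reached by 14.7% of measured genes, and the SD among genes of like signal was 0.58. Hey1, a related repressor prominent in vessels and bone, read 6.05 and 5.61 by 1415999_at. The Hey1 ratio of -0.44, or 1.36-fold lower, had 11.3% of measured genes at or below it. Neither target has a second probe set against which its ratio could be set.

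**Figure D2:**
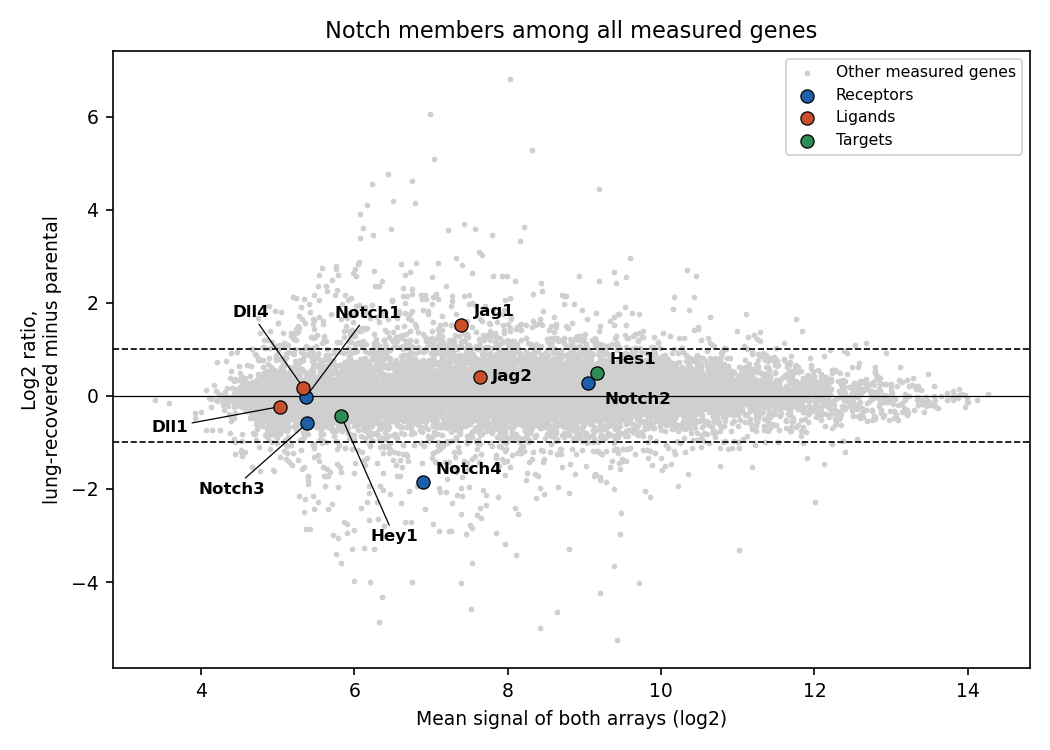
Log2 ratio, lung-recovered minus parental (vertical axis), against the mean log2 signal of both arrays (horizontal axis) for the representative probe set of each of 13332 measured genes (grey), with the 10 Notch members coloured by role and dashed lines at 2-fold. Jag1 at 1.53 and Notch4 at -1.86 lie outside the lines, and the other 8 members lie between -0.59 and 0.50.

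The rest of the pathway was described through 7 lists of genes by role, 104 genes in all without the members. Of these, 98 were named by the annotation and 81 were measured, while the remaining 17 did not exceed the floor of either array. In these lists 4 of 81 genes were at least 2-fold higher (4.94%, beside the 4.42% of all measured genes) and 1 of 81 was at least 2-fold lower (1.23%, beside 2.55%). These shares were close to the background. The counts by list given below are to be read beside the same 4.42% higher and 2.55% lower, and each rests on few genes. The median ratio was 0.05, with 45 genes above 0 and 36 below. The genes past 2-fold were Rbpj, Dvl2, Hes6 and Hey2 upward and Neurl1b downward.

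Rbpj, the DNA-binding partner of all 4 receptors, was higher by each of its 3 probe sets. It read 9.09 and 10.30 by 1454896_at, a ratio of 1.21 or 2.31-fold higher, with 7.89 and 9.08 by 1418114_at and 8.38 and 9.16 by 1448957_at. The last of these, at a ratio of 0.78, was within 2-fold. In the nuclear complex 1 of 18 measured genes, Rbpj, was past 2-fold, and the median ratio of that list was 0.01. The co-activator gene Maml1 read 9.37 and 9.62, and the acetyltransferase gene Crebbp, which had the lowest ratio of the list, read 10.26 and 9.76.

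Among the genes that handle ligands or glycosylate receptors and ligands, 0 of 12 were higher and 1 was lower past 2-fold. Neurl1b, a ubiquitin ligase of the Neuralized family, which promotes the endocytosis of ligands, read 9.99 and 8.27, a ratio of -1.72 or 3.29-fold lower by its only measured probe set. Mib1, the ubiquitin ligase on which most ligand activity depends, read 9.42 and 9.76. The highest ratio of the list was that of Chac1, reported as an inhibitor of Notch1 maturation and known also as a stress response gene, at 11.42 and 11.96. The fringe glycosyltransferase gene Lfng, whose product alters which ligands a receptor answers to, read 6.03 and 5.76.

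Of the 8 measured genes of receptor cleavage, 0 were past 2-fold in either direction, and the median ratio was 0.14. They ran from -0.57 for Furin, the protease that processes receptors on their way to the surface (8.67 and 8.10), to 0.39 for Adam17 (8.69 and 9.08). Adam10, the main protease of ligand-dependent cleavage, read 10.87 and 10.84, and the gamma-secretase subunit gene Psenen 11.37 and 11.53.

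Of 18 measured genes of receptor turnover and trafficking, 1 was higher past 2-fold and 0 were lower, with a median ratio of 0.15. Dvl2, a Dishevelled protein of Wnt signalling that can restrain Notch, read 7.07 and 8.47 by 1417207_at and 5.94 and 7.30 by 1448616_at, ratios of 1.40 and 1.36. Its relative Dvl3 had the lowest ratio of the list, at 5.75 and 5.23. Numb, an endocytic antagonist of Notch, read 8.95 and 9.47.

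The list of other Hes and Hey family genes also held Bhlhe40 and Bhlhe41, which were among its 7 measured genes. Of these 7, 2 were past 2-fold upward and 0 downward, beside 4.42% and 2.55% of all measured genes. Their median ratio was -0.23. Hey2, a repressor closely related to Hey1, read 3.51 on the parental array, at the floor, and 6.03 on the lung-recovered array, which is at least 2.53-fold higher. Hes6, which encodes a Hes protein known to oppose Hes1, read 5.23 and 6.49 by 1436050_x_at, 2.39-fold higher, but 5.46 and 5.81 by 1452021_a_at, a ratio of 0.35. The suffix _x marks probe sets that can share probes with transcripts of other genes, and the 2.39-fold value rests on such a probe set. With the floor raised to the 60th percentile, 6.18 on the parental array, the parental Hes6 signal was at the floor. Its ratio was then at least 0.31, a bound that does not contradict the higher value, and Hey2 was at the floor on both arrays. Heyl had the lowest ratio of the list, at 5.25 and 4.91, and Hes5, a classical direct target, read 4.98 and 4.65.

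Of 11 measured other genes known as Notch targets, 0 were past 2-fold, with a median ratio of 0.08 and a range from -0.34 for Sox9 (5.24 and 4.90) to 0.52 for the cell cycle inhibitor gene Cdkn1a (8.11 and 8.63). Nrarp, a feedback inhibitor induced by Notch, read 6.14 and 6.36 by 1417986_at and 4.79 and 5.26 by 1417985_at. Of the intestinal secretory genes that Notch opposes, 9 of 18 exceeded neither floor and 0 of the 9 measured were past 2-fold, with a median ratio of -0.16. Atoh1, the regulator of secretory fate, read 4.87 and 4.92, close to the floor. The list ran from -0.41 for the tuft cell gene Dclk1 (5.64 and 5.23) to 0.11 for Foxa3 (7.99 and 8.10).

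**Figure D3:**
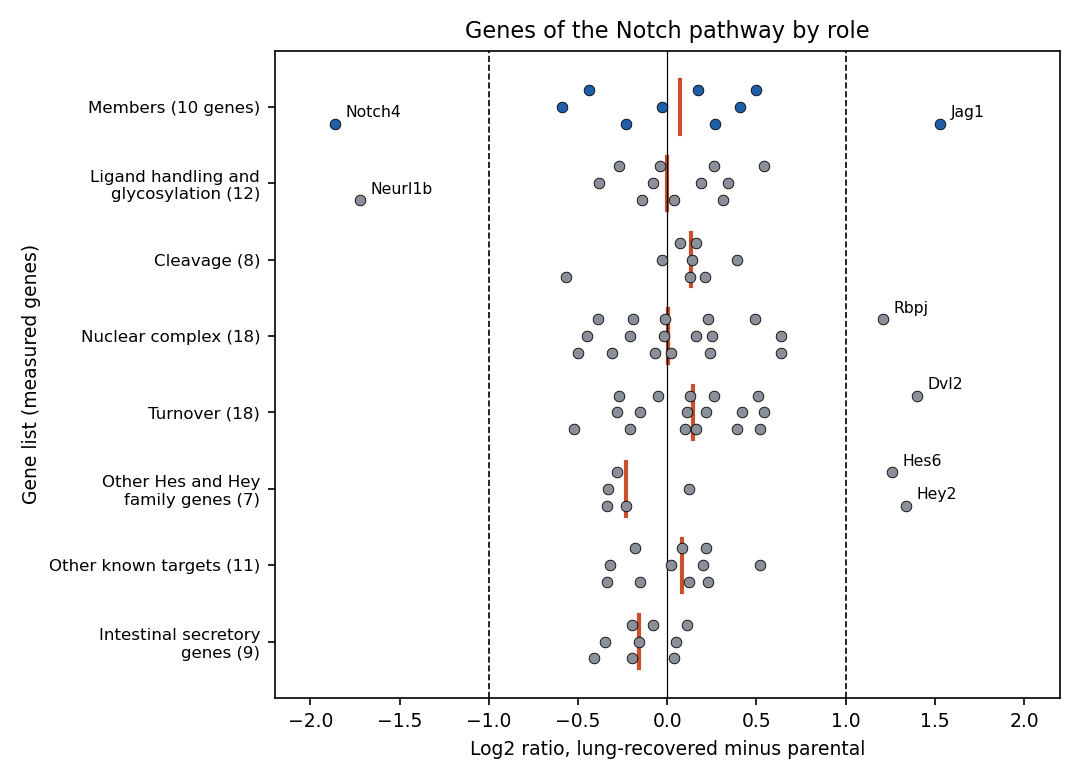
Log2 ratio, lung-recovered minus parental (horizontal axis), of each measured gene in the 10 Notch members and in 7 pathway lists, with the number measured in brackets, the median of each list as a bar and dashed lines at 2-fold. Points are spread vertically only to separate them, and genes past 2-fold are named. Rbpj, Dvl2, Hes6 and Hey2 lie above 1 and Neurl1b lies at -1.72.

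The motif GTGGGAA, the core of the sites that RBPJ binds, was searched on both strands of the 250 bases before each start, where it reads TTCCCAC on the minus strand. It was in 5.42% of the 32851 promoter windows, and in at least 1 window of 6.18% of genes. Of the members, 8 had a promoter in the table, and 0 of those 8 held the motif. Hes1 and Hey1 were not matched. Of 81 pathway list genes with a promoter, 7 held it (8.64%), and these were Hes5, Hes7, Hey2, Lfng, Psen2, Rbpjl and Spen. The windows of the family members Hes5, Hes7 and Hey2 and of Lfng are shown because these genes are known as transcriptional targets of the pathway. Each is written 5′ to 3′ on the strand of the gene, with the motif in capitals. In the order printed they lie at chr4:154960686-154960714 and chr4:154960829-154960857 (plus strand), chr11:69120262-69120290 (plus), chr10:30842973-30843001 (minus) and chr5:140607221-140607249 (plus) of GRCm38.p6.
Hes5, 226 bases before the start: gggcgagcgcgTTCCCACagcccggacat
Hes5, 83 bases before the start: ggccgccgagtGTGGGAAcggccgcggcg
Hes7, 180 bases before the start: cctcccctcacTTCCCACatttggggcta
Hey2, 207 bases before the start: gcgcggtggcaTTCCCACgcctctgccaa
Lfng, 109 bases before the start: ccgtatcccacGTGGGAAggagagatctc
Of these genes, Hey2 was at least 2.53-fold higher, and the ratios of Hes5, Hes7 and Lfng were -0.33, -0.23 and -0.27. A match describes letters in these windows and is not a measured binding site.

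Markers were used to check the cultures, by the brightest probe set of each gene. Of 14 colon epithelial markers 10 were measured on both arrays, with Krt19 brightest at 12.72 and 12.98 and Gpa33 2.10-fold higher, while Krt20, Cdx1, Vil1 and Lgals4 were at the floor on both and Cdx2 was close to it. Because Notch4, Dll4 and Hey1 are also genes of endothelium, endothelial markers were set beside them. Of 16 such markers 11 were measured, 8 of them within 2-fold. The summed linear signal of the 11 was 2229 for the parental and 1526 for the lung-recovered line. This sum mixes large differences in opposite directions and does not describe the markers in general. Cdh5 was at least 24.4-fold higher (at a ratio of at least 0.83 by its other probe set). Sox17 was 23.8-fold lower, or at least 58.1-fold lower by its other probe set, 1429177_x_at. Tek was at least 15.8-fold lower, and Esam was brightest at 8.93 and 8.70. Pecam1, Vwf, Tie1, Emcn and Cldn5 were at the floor on both arrays. Kdr (5.94 and 5.89), Flt1 (6.77 and 6.73), Eng (5.97 and 5.75) and Egfl7 (6.68 and 6.64) exceeded the floor on both. Whether either culture held endothelial cells was not tested. Of 11 mural and smooth muscle markers, set beside Notch3, 7 were measured and 0 were past 2-fold, with Mcam brightest at 9.11 and 9.52, summed signals of 882 and 1019, and Myh11, Rgs5, Cnn1 and Kcnj8 at the floor on both. Of 9 fibroblast markers 3 were measured and 0 were past 2-fold, with Fbln1 brightest at 5.76 on both arrays. Of 12 leukocyte markers 6 were measured, with Cd68 3.53-fold higher, Csf1r 2.17-fold higher by 1 probe set but at ratios of 0.78 and 0.02 by its others, and Cd74, the brightest, 2.97-fold lower, and Ptprc was at the floor on both. Of 15 lung epithelial markers 9 were measured, with Napsa 4.14-fold lower and Aqp5 brightest at 10.68 and 10.01.

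The member ratios were recomputed under 8 other settings of scaling, floor and choice of probe set. Jag1 ran from 1.47 to 1.63 and Notch4 from -1.88 to -1.67, and both stayed past 2-fold in each. The Notch4 value of -1.67 is a bound. It came from the 60th-percentile floor of 6.15, above the lung-recovered signal of 5.96. For Notch4, with 1 measured probe set that has no suffix, a lower or absent floor and the choice of probe set could not change the ratio. No setting took the Jag1 ratio from 1421105_at, which was 0.16, so the Jag1 range leaves out the disagreement between its probe sets. Of the other members, Notch2, Jag2, Dll4 and Hes1 kept ratios above 0 and Notch3, Dll1 and Hey1 below 0 in every setting that measured them, and only Notch1 took both signs, from -0.06 to 0.08. None of these 8 members passed 2-fold in any setting. No setting took Notch2 from 1451889_at alone, at a ratio of -0.06, or Dll4 from 1421827_at alone, at 0 after flooring. The kept signs of Notch2 and Dll4 therefore leave out these probe sets on their own.

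**Figure D4:**
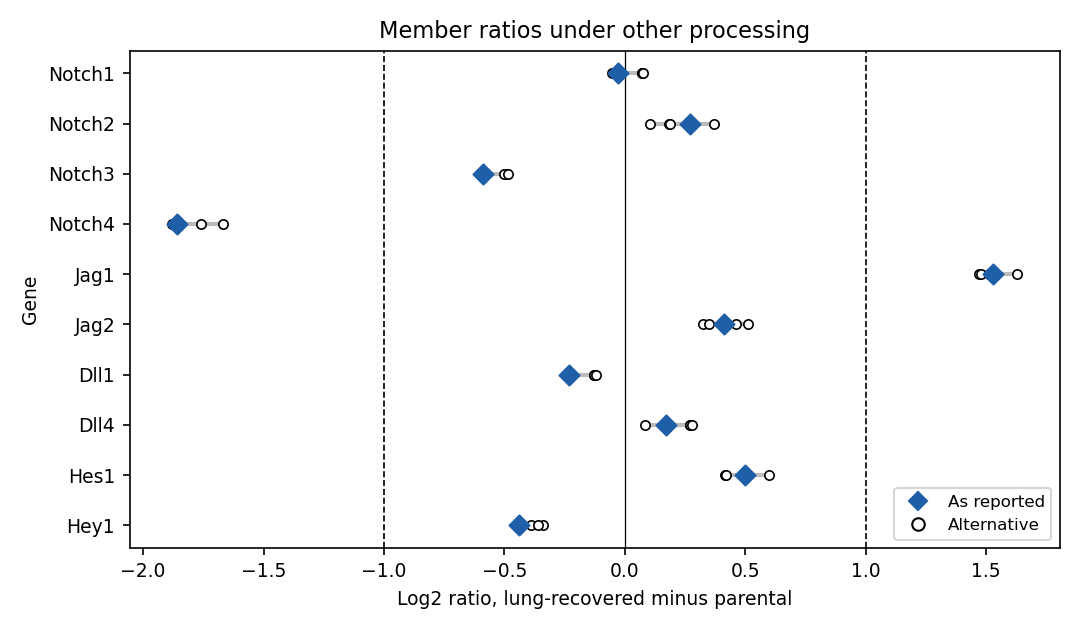
Log2 ratio, lung-recovered minus parental (horizontal axis), of each of the 10 members as reported (diamonds) and under each alternative that gave a value (open circles), with dashed lines at 2-fold. Jag1 stays between 1.47 and 1.63 and Notch4 between -1.88 and -1.67, and the circles of Notch1 lie on both sides of 0.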

How the data were processed

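The authors deposited 1 table of log2 signals with 2 decimals for 45037 probe sets on 2 arrays. Base 2 was inferred from the maxima of 14.25 and 14.28, which lie in a scanner's range only in that base. MAS5 is named, without its role, per the submitters' processing notes. How the arrays were scaled to each other is not stated in the sources used here. The values were used as deposited, with medians of 5.36 and 5.26. Probe sets with 1 symbol in the platform annotation (34945) were named, and current symbols came from the GRCm38.p6 gene table through Entrez identifiers. Each array was floored at its 40th percentile, so for a gene dim on a single array the fold is a lower bound, written "at least". Differences were counted at 2-fold, with no test. The number of arrays limits the precision. The members and lists were chosen with earlier results of these data known. From each pathway list the text names the genes past 2-fold and the highest and lowest ratio, and from each marker list those past 2-fold and the brightest. Other genes named, such as Maml1, Mib1 and Atoh1, were chosen for their known role after values had been seen. Alternatives were 3 other scalings, among them lowess (span 0.3), no floor or one at the 20th or 60th percentile, the median over probe sets, and probe sets without the suffixes _s, _x and _a. Calculations used Python 3.11.15, pandas 2.3.3 and statsmodels 0.14.6 and were tested on simulated data. Promoter sequences are from RefSeq.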

Additional observations from a re-analysis of the deposited data

How the results depend on the processing

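Values without a replicate were compared with the median SD between probe sets of 1 gene, 0.18 log2. Of 152 values under alternatives, 145 stayed within that limit, or within 1.5 times for a count. Part of these values could not move. A lower or absent floor leaves probe sets above the reported floor as they were, and a gene with 1 measured probe set offers no other choice. No value past 2-fold changed sign, and among the members Notch1, at -0.03, changed sign under the 3 other scalings, to between 0.07 and 0.08. With a 60th-percentile floor the Notch4 ratio was -1.67 or lower, a bound because its lung-recovered signal was then at the floor. In the same setting the median of the 5 members still measured was 0.41, and 2 of 60 measured pathway list genes were at least 2-fold higher in place of 4 of 81. In that setting Notch1, Notch3, Dll1, Dll4 and Hey1 did not exceed the floor of either array. Hes6 had a ratio of 0.81 by the median over its probe sets. Hey2 had a ratio of at least 2.48 with a 20th-percentile floor, where its parental signal was still at the floor, and of 2.52 without a floor. Shifting the arrays to equal medians moved the median of all measured genes from 0 to 0.10. Without suffixed probe sets Notch3 was not measured. No paired analysis was possible because each culture had 1 array.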
